A study of Mus musculus with 4 samples.

Results

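The genes described are those of glucose transport, glycolysis, lactate handling, the pyruvate dehydrogenase complex, the pentose phosphate pathway and the transcriptional response to low oxygen, in mouse haploid embryonic stem cells (haESCs) treated with the chemical combination RDF or with its solvent. They were chosen by name: of 44 listed names, which counted Pkm and Pkm2 apart, 43 were found among the 23235 gene symbols of the files, with pyruvate kinase written as Pkm2. RNA was sequenced from 4 samples, 2 treated with DMSO and 2 treated with RDF, and the deposited values were FPKM, fragments of a gene scaled to the length of its transcript and to the mapped fragments of the library. RDF joins Repsox, which inhibits TGF-β signalling, DMH1, which inhibits BMP4 signalling, and Forskolin, which activates adenylyl cyclase and so raises cAMP. The cells were of the line HG165, an androgenetic line, that is, one whose single genome comes from a sperm. They are 1 line with a paternal genome only, cultured in ES medium with serum and LIF. The line was derived from C57BL/6 mice, no engineered allele was named for either group, and the DMSO group received the solvent alone. The methods state that most experiments had no feeder cells and name 3 exceptions, assays of haploid percentage, morphology and alkaline phosphatase, with RNA-seq not among them. The doses, length of treatment and any sorting for haploid cells were not given for the sequenced samples in the sources used here, and the share of haploid cells in these samples was not measured.

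The depth behind the FPKM was estimated at 10400000 to 13300000 fragments per sample. Of the low values used for that estimate, 38.4% to 43.1% per sample lay within 0.1 of a whole fragment, where 20% would do so if evenly spread, so the estimate is approximate. All 12 listed embryonic stem cell markers passed the filter, and Pou5f1, the core pluripotency factor, was at 939 to 1285 FPKM in the 4 samples. By the test given below, 5 of these 12 markers were higher in RDF (41.7%, beside 13.3% of all genes tested). Another 4 were lower (33.3%, beside 8.28%). The summed level of the 12 was 8056 to 8147 FPKM in DMSO and 4948 to 5443 FPKM in RDF. Dppa5a alone went from 5493 and 5539 FPKM to 3232 and 2839 FPKM and made up most of the fall in that sum, and the part of these marker changes in the results below was not tested. Fibroblast markers, which feeder cells would carry, moved in both directions, and of 12 listed, 9 passed the filter. Of these 9, 5 were lower in RDF (Col1a1, Col1a2, Col5a1, Postn and Thy1), or 55.6%, beside 8.28% of all genes tested. Dcn was higher (11.1%, beside 13.3%), from 1.74 and 1.396 FPKM to 6.56 and 7.51 FPKM. The 12 summed to 46.9 to 48.0 FPKM in DMSO and 33.6 to 34.8 FPKM in RDF. Fap was at 0 in DMSO replicate 1 and RDF replicate 1. Of 8 trophoblast markers, 4 passed the filter and 3 of these 4 were higher in RDF (75.0%, beside 13.3% of all genes tested). The 8 summed to 38.1 to 40.2 FPKM in DMSO and 69.6 to 70.8 FPKM in RDF. Tfap2c alone went from 27.2 and 25.1 FPKM to 48.3 and 50.7 FPKM and made up most of the rise in that sum. Cdx2, Elf5, Plac1 and Tpbpa did not pass the filter, with Tpbpa at 0 in all samples. Of 8 extraembryonic endoderm markers, 3 passed the filter and of these Gata6 was higher (33.3%, beside 13.3%). These 8 summed to 15.1 to 15.5 FPKM in DMSO and 16.6 to 17.6 FPKM in RDF. In bulk RNA, fewer cells of a type and less RNA per cell cannot be told apart.

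Glycolysis splits glucose into pyruvate in the cytosol, and its flux is set mainly at the entry of glucose, at hexokinase and at phosphofructokinase. Pyruvate is then either reduced to lactate by lactate dehydrogenase or taken into mitochondria and turned into acetyl-CoA by the pyruvate dehydrogenase complex. Mouse embryonic stem cells are known for high glycolysis, and in many cells the hypoxia-inducible factors (HIF) raise the genes of this pathway when oxygen is low, while prolyl hydroxylases of the Egln family mark HIF alpha proteins for degradation when oxygen is present. Most steps are served by paralogues, closely related enzymes that differ in tissue use and kinetics.

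Upon RDF treatment, 8 of the 43 genes were higher and 4 were lower, and the other 31 did not pass the test. The genes that rose were Eno2, Ldhb, Egln1, Hk1, Hif1a, Pfkm, Pfkfb3 and Gpi1, and those that fell were Epas1, Pgam2, Eno3 and Pdha1. Changes were small, with log2 fold changes of -0.74 to 0.98 on the log2(FPKM + 1) scale, RDF minus DMSO. The genes that make up most of the pathway's RNA, Gapdh, Pgk1, Aldoa, Pkm2, Eno1 and Ldha, were not among those called, and the largest changes were in genes of lower level, among them Eno2 and Ldhb, less abundant paralogues of Eno1 and Ldha. The test was limma with a Benjamini-Hochberg adjusted p of 0.05 over the 11733 genes that averaged 1 FPKM or more, and all 43 genes passed that filter. In the same test 1561 genes (13.3%) were higher and 972 (8.28%) were lower, beside 18.6% and 9.3% of these 43. The median log2 fold change of the 43 genes was 0.06, and that of all genes tested was 0.03. Scaling the samples by median ratios gave 6 higher and 6 lower calls among the 43 in place of 8 and 4, with Gpi1 and Pfkfb3 lost and G6pdx and Pfkp gained, both lower.

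Both RDF values lay above both DMSO values for 22 of the 43 genes (51.2%), beside 37.1% of all genes tested, and below them for 15 (34.9%), beside 28.5% of all genes tested. For 6 genes the groups overlapped. With 2 samples a group, the lowest two-sided p that an exact permutation test of 1 gene allows is 0.333, and limma's test, which shares the spread across genes, is therefore the one given. The labels number the samples 1 and 2 and do not say whether they came from separate cultures, so p-values measure the spread between these samples, which may be technical. Fewer of the 43 genes were called with 1 sample left out, the fewest without RDF replicate 1 or RDF replicate 2. Such fits take each gene's own spread from the group that keeps 2 samples. The calls lost without an RDF sample were those of Hif1a, Pdha1, Pfkm, Eno3, Gpi1 and Pfkfb3. With 1 sample left out, their log2 fold changes were 0.45 to 0.48, -0.26 to -0.25, 0.24 to 0.32, -0.32 to -0.27, 0.20 to 0.29 and 0.19 to 0.36, in that order. Calls over all genes tested also fell when a sample was left out, most without RDF replicate 1 or RDF replicate 2. The calls of Hk1, Pgam2, Eno2, Ldhb, Epas1 and Egln1 held in all 11 alternative settings.

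**Figure D1:**
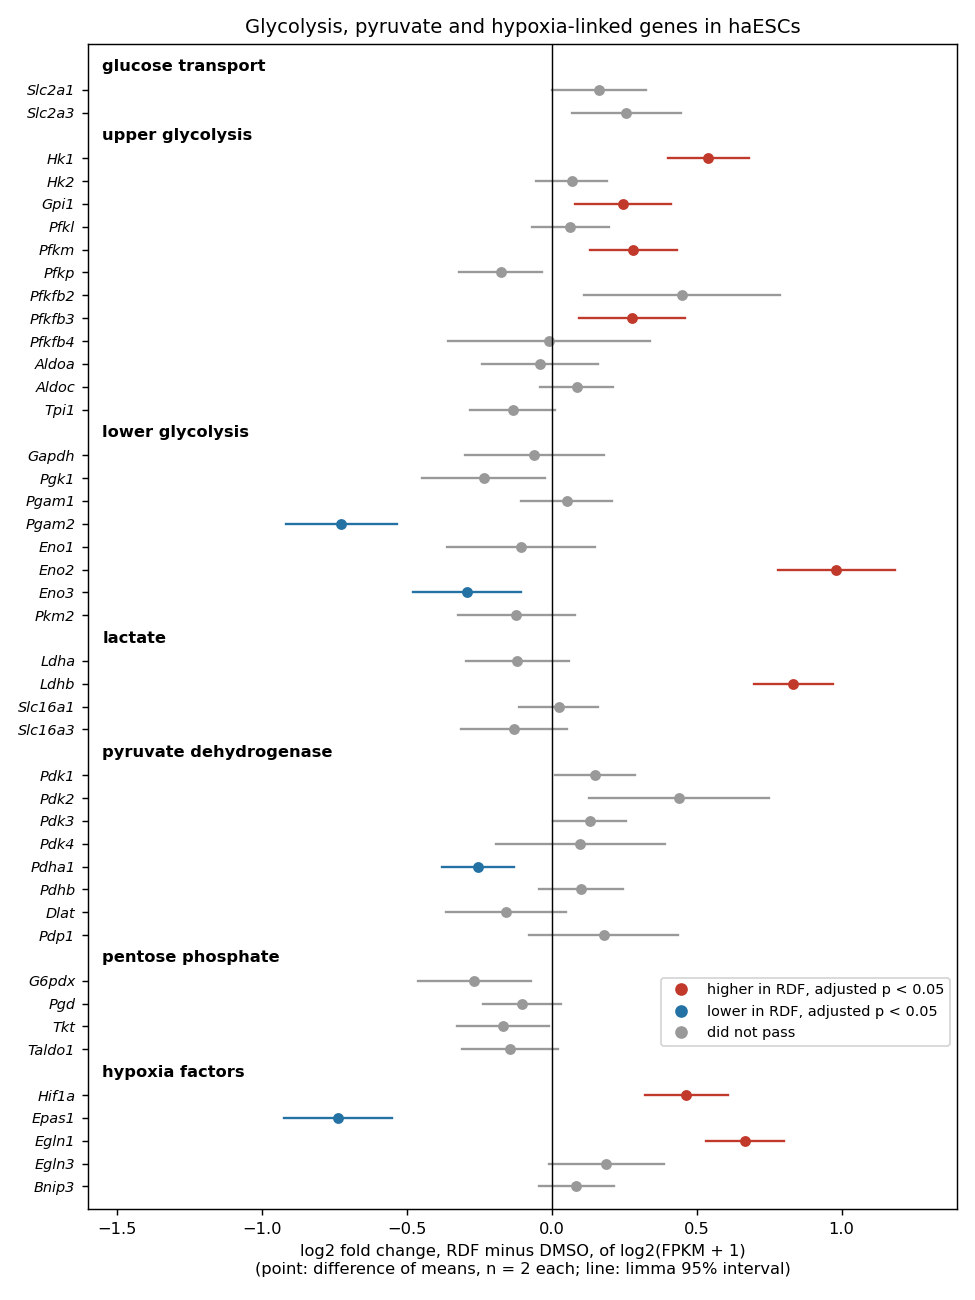
Log2 fold change of each of the 43 genes (x axis, RDF minus DMSO on log2(FPKM + 1)) grouped by role, with points for the difference of the means of 2 samples each and lines for limma's 95% interval. The 8 genes called higher (red) reach 0.98 for Eno2, the 4 called lower (blue) reach -0.74 for Epas1, and most of the others (grey) lie within 0.3 of 0.

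Glucose enters these cells mainly through the facilitative transporters GLUT1 and GLUT3, encoded by Slc2a1 and Slc2a3, and both transcripts were abundant. Slc2a1 was at 1064 and 1055 FPKM in DMSO and at 1157 and 1215 FPKM in RDF. Slc2a3 was at 929 and 969 FPKM in DMSO and at 1079 and 1193 FPKM in RDF. Both RDF samples thus lay above both DMSO samples for each gene, but neither gene passed the test: the log2 fold change was 0.16 for Slc2a1 (95% interval -0.000372 to 0.32, limma adjusted p = 0.132) and 0.26 for Slc2a3 (95% interval 0.07 to 0.44, limma adjusted p = 0.0612). The unadjusted limma p was under 0.05 for 1 of the 2 genes, beside 4453 of all 11733 genes. Slc2a3 passed in 2 of the 11 alternatives, quantile normalization and the replicate block.

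In upper glycolysis, from hexokinase to triose phosphate isomerase, 4 of 12 genes rose by limma (33.3%, beside 13.3% of all genes tested). None fell, beside 8.28% of all genes tested. At an unadjusted limma p under 0.05, 5 were higher and 1 lower, beside 2637 and 1816 of all 11733 genes. The median log2 fold change was 0.08. Hexokinase traps glucose in the cell as glucose 6-phosphate. Hk1, the broadly expressed form (NCBIM37 chr10:61731603-61842656, minus strand), was at 47.0 and 44.1 FPKM in DMSO and at 67.4 and 66.0 FPKM in RDF. The groups stood well apart, with a mean of 45.6 ± 2.03 FPKM in DMSO against 66.7 ± 0.955 FPKM in RDF (± SD, n = 2) and a log2 fold change of 0.54 ± 0.06 (SE, limma adjusted p = 0.00332). Hk2, a HIF-inducible form and the more abundant of the pair here, was at 80.5 and 81.1 FPKM in DMSO and at 84.8 and 84.7 FPKM in RDF. Its change of 0.07 (95% interval -0.05 to 0.19) did not pass the test.

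Gpi1, glucose-6-phosphate isomerase (chr7:34987141-35015308, minus strand), was at 920 and 861 FPKM in DMSO and at 1046 and 1067 FPKM in RDF, a log2 fold change of 0.25 ± 0.07 (SE, limma adjusted p = 0.0494). This call lay at the threshold and was kept in 3 of 11 alternatives. Phosphofructokinase, the committed step, is built from liver, muscle and platelet subunits. Of these, the muscle subunit Pfkm (chr15:97923020-97962878, plus strand) was at 25.3 and 23.9 FPKM in DMSO and at 29.6 and 30.6 FPKM in RDF and rose by 0.28 ± 0.06 on the log2 scale (SE, limma adjusted p = 0.0253, kept in 7 of 11 alternatives). The liver subunit Pfkl, the most abundant, was at 241 and 230 FPKM in DMSO and at 244 and 248 FPKM in RDF, with a log2 fold change of 0.06 (95% interval -0.07 to 0.20) that did not pass. The platelet subunit Pfkp was at 137 and 135 FPKM in DMSO and at 116 and 125 FPKM in RDF, a log2 fold change of -0.18 (limma adjusted p = 0.0816) that passed under median-ratio scaling only. The summed level of the subunits was 390 to 404 FPKM in all 4 samples.

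The Pfkfb enzymes make and degrade fructose 2,6-bisphosphate, the main activator of phosphofructokinase. Pfkfb3, the form with the highest kinase activity (chr2:11393057-11423728, minus strand), held 83.8% to 86.1% of the summed level of the 3 Pfkfb genes in every sample. It was at 26.3 and 24.99 FPKM in DMSO and at 29.5 and 33.2 FPKM in RDF, and its log2 fold change was 0.28 ± 0.08 (SE, limma adjusted p = 0.0476). Like that of Gpi1, this call was kept in 3 of 11 alternatives. Pfkfb2 was at 3.34 and 2.84 FPKM in DMSO and at 3.97 and 5.26 FPKM in RDF and did not pass (log2 fold change 0.45, limma adjusted p = 0.0672). Pfkfb4 was near the filter, at 1.16 to 1.57 FPKM or an estimated 43.3 to 64.4 fragments per sample, and its groups overlapped. Among the last genes of upper glycolysis, the aldolase Aldoa was at 3562 and 3573 FPKM in DMSO and at 3500 and 3436 FPKM in RDF, the aldolase Aldoc at 118 to 128 FPKM, and the triose phosphate isomerase Tpi1 at 872 and 864 FPKM in DMSO and at 797 and 785 FPKM in RDF. None of these 3 passed the test, with log2 fold changes of -0.04 (0.0865 under quantile normalization), 0.09 and -0.13.

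In lower glycolysis, from glyceraldehyde 3-phosphate to pyruvate, 1 of 8 genes rose and 2 fell, beside 13.3% and 8.28% of all genes tested. The median log2 fold change was -0.11. Phosphoglycerate mutase and enolase stood out here: the abundant form of each did not pass, and the scarce forms did. Eno2, the enolase of neurons (chr6:124710071-124719691, minus strand), was at 3.84 and 3.85 FPKM in DMSO and at 8.29 and 8.86 FPKM in RDF. Its mean of 8.57 ± 0.401 FPKM in RDF was 2.23 times that of 3.84 ± 0.00549 FPKM in DMSO (± SD, n = 2), and its log2 fold change of 0.98 ± 0.08 (SE, limma adjusted p = 0.00173) was the largest rise of the 43 genes. The estimated depth behind Eno2 was 104 to 284 fragments per sample. Eno3, the enolase of muscle (chr11:70470704-70476015, plus strand), was at 8.12 and 8.35 FPKM in DMSO and at 6.68 and 6.40 FPKM in RDF, a fall by 0.29 ± 0.08 on the log2 scale (SE, limma adjusted p = 0.0426, kept in 5 of 11 alternatives). The order of this pair turned over: the ratio of Eno3 to Eno2 was 2.11 and 2.17 in DMSO and 0.806 and 0.723 in RDF. Eno1, the enolase of most cells, was at 2225 and 2645 FPKM in DMSO and at 2202 and 2313 FPKM in RDF and held 99.3% to 99.5% of the enolase level throughout.

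Pgam2, the muscle form of phosphoglycerate mutase (chr11:5701643-5703736, minus strand), was at 10.6 and 9.93 FPKM in DMSO and at 5.71 and 5.91 FPKM in RDF. Both RDF values were well below both DMSO values, with a mean of 10.3 ± 0.483 FPKM in DMSO against 5.81 ± 0.140 FPKM in RDF (± SD, n = 2) and a log2 fold change of -0.73 ± 0.08 (SE, limma adjusted p = 0.00348). Its RNA is short, and an estimated 45.8 to 77.0 fragments per sample lay behind these values. Pgam1, the form of most cells, was at 1132 and 1123 FPKM in DMSO and at 1159 and 1178 FPKM in RDF, with a change of 0.05 (95% interval -0.10 to 0.21).

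The remaining steps of lower glycolysis were among the most abundant of the 43 genes, and none passed the test. Gapdh, glyceraldehyde 3-phosphate dehydrogenase, was at 5666 and 5203 FPKM in DMSO and at 5302 and 5122 FPKM in RDF, the 8th highest mean level of the 11733 genes. Pgk1, phosphoglycerate kinase, was at 4647 and 4528 FPKM in DMSO and at 3948 and 3850 FPKM in RDF. Pkm2, pyruvate kinase, was at 2850 and 2671 FPKM in DMSO and at 2588 and 2482 FPKM in RDF. The groups overlapped for Gapdh (log2 fold change -0.06, 95% interval -0.30 to 0.18, and 0.11 under quantile normalization). RDF lay below DMSO for Pgk1 (-0.23, 95% interval -0.45 to -0.02, limma adjusted p = 0.107) and for Pkm2 (-0.12, 95% interval -0.32 to 0.08, limma adjusted p = 0.324). These intervals leave room for changes of up to 0.45 on the log2 scale. Gapdh, Pgk1, Aldoa, Eno1, Tpi1 and Ldha have near-identical processed copies in the mouse genome, and how reads shared with them were counted is not given in the sources used here, so their levels are uncertain to that extent.

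Of the 4 lactate genes 1 rose, beside 13.3% of all genes tested, and none fell, beside 8.28%. The median log2 fold change was -0.05. Lactate dehydrogenase is a tetramer of A and B subunits, and the B subunit is typical of tissues that use lactate, such as heart. Ldhb (chr6:142438769-142456477, minus strand) was at 165 and 162 FPKM in DMSO and at 301 and 284 FPKM in RDF. The groups were far apart, with a mean of 164 ± 1.95 FPKM in DMSO against 292 ± 11.7 FPKM in RDF (± SD, n = 2), and the log2 fold change of 0.83 ± 0.06 (SE) had the lowest adjusted p of the 43 genes (limma adjusted p = 0.000995). Ldha was at 2062 and 2017 FPKM in DMSO and at 1862 and 1895 FPKM in RDF, a change of -0.12 (95% interval -0.29 to 0.06) that did not pass. Ldhb thus made up 7.41% and 7.44% of the 2 genes' summed level in DMSO and 13.9% and 13.0% in RDF, while the sum itself was 2163 to 2227 FPKM in all samples. The lactate and pyruvate carriers MCT1 and MCT4, encoded by Slc16a1 and Slc16a3, were at 82.6 to 87.9 FPKM and at 144 to 173 FPKM, and their groups overlapped.

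Of the 8 genes of the pyruvate dehydrogenase complex and its regulators, 1 fell by limma (12.5%, beside 8.28% of all genes tested). None rose, beside 13.3%. Of the 8, 3 were higher and 1 lower at an unadjusted limma p under 0.05, beside 2637 and 1816 of all 11733 genes. Pdha1, the E1 alpha subunit and the target of the inhibitory kinases (chrX:156560141-156576345, minus strand), was at 210 and 209 FPKM in DMSO and at 175 and 176 FPKM in RDF. The spread within each group was about 1 FPKM, with means of 209 ± 0.926 FPKM in DMSO against 175 ± 1.29 FPKM in RDF (± SD, n = 2), and the log2 fold change was -0.25 ± 0.05 (SE, limma adjusted p = 0.0194). It was kept in 7 of 11 alternatives, and lost without DMSO replicate 1, without either RDF sample and without the mean-variance trend. The partner subunit Pdhb was at 225 and 210 FPKM in DMSO and at 235 and 232 FPKM in RDF (log2 fold change 0.10, limma adjusted p = 0.258). Dlat, the E2 subunit, was at 37.8 and 35.7 FPKM in DMSO and at 30.4 and 35.4 FPKM in RDF (log2 fold change -0.16, limma adjusted p = 0.226).

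The 4 kinases that switch the complex off all had positive log2 fold changes, as did 6382 of all 11733 genes, and none passed in limma. Of the 4, 3 were higher at an unadjusted limma p under 0.05, beside 2637 of all 11733 genes. Pdk3, the most abundant, was at 77.7 and 79.3 FPKM in DMSO and at 87.4 and 84.9 FPKM in RDF (log2 fold change 0.13, limma adjusted p = 0.120). Pdk1, a HIF target, was at 38.6 and 37.7 FPKM in DMSO and at 41.5 and 43.5 FPKM in RDF (0.15, limma adjusted p = 0.109). Pdk2 was at 5.21 and 6.95 FPKM in DMSO and at 8.34 and 8.72 FPKM in RDF (0.44, limma adjusted p = 0.0564), and passed under the replicate block and without DMSO replicate 2. For Pdk4, at 8.39 to 10.8 FPKM, the groups overlapped. The phosphatase Pdp1, which switches the complex on, was at 1.58 and 1.75 FPKM in DMSO and at 2.00 and 2.03 FPKM in RDF and did not pass.

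The pentose phosphate pathway draws glucose 6-phosphate away from glycolysis to make NADPH and ribose. All 4 of its genes among the 43 had both RDF values below both DMSO values, as did 28.5% of all genes tested. None of the 4 passed the test in limma, and 2 of 4 were lower at an unadjusted p under 0.05, beside 1816 of all 11733 genes. Of 10 other pentose phosphate and NADPH genes tested, RDF lay above DMSO for 3 and below for 3, and the groups overlapped for 4. Pgls, Rpia and Rpe were among those that overlapped, with log2 fold changes of 0.04, 0.009 and 0.05. G6pdx, the rate-limiting dehydrogenase, was at 79.9 and 68.7 FPKM in DMSO and at 60.7 and 62.1 FPKM in RDF, a log2 fold change of -0.27 (95% interval -0.46 to -0.07, limma adjusted p = 0.0624) that passed under median-ratio scaling and without DMSO replicate 2. Pgd, the next dehydrogenase, was at 94.5 and 97.6 FPKM in DMSO and at 91.5 and 87.3 FPKM in RDF. Transketolase, Tkt, was at 220 and 241 FPKM in DMSO and at 200.4 and 210.0 FPKM in RDF, and transaldolase, Taldo1, at 232 and 258 FPKM in DMSO and at 219 and 223 FPKM in RDF. The log2 fold changes of Pgd, Tkt and Taldo1 were -0.10, -0.17 and -0.14, with limma adjusted p of 0.225, 0.119 and 0.175.

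Among the roles, the 5 hypoxia-linked genes had the most calls for their number, with 2 higher and 1 lower. Of all genes tested, 13.3% were higher and 8.28% were lower. These 5 genes were chosen by name, and in so small a group the ranking rests on few calls. Hif1a, the broadly used HIF alpha subunit (chr12:75002362-75048517, plus strand), was at 17.0 and 17.0 FPKM in DMSO and at 24.1 and 23.6 FPKM in RDF, and rose by 0.47 ± 0.06 on the log2 scale (SE, limma adjusted p = 0.00540). Without RDF replicate 1 its limma adjusted p was 0.0528, and without RDF replicate 2 it was 0.0514, at about the same log2 fold change (0.45 to 0.48). Epas1, which encodes HIF-2 alpha (chr17:87153247-87232750, plus strand), was at 16.3 and 16.1 FPKM in DMSO and at 8.84 and 9.83 FPKM in RDF, and its log2 fold change of -0.74 ± 0.08 (SE, limma adjusted p = 0.00316) was the largest fall of the 43 genes. The 2 subunits were thus at near-equal levels in DMSO and moved in opposite directions. Hif1a was 51.0% and 51.3% of their summed level in DMSO and 73.2% and 70.6% in RDF, and the ratio of Hif1a to Epas1 went from 1.04 and 1.05 to 2.73 and 2.40. The summed level itself was 33.3 and 33.0 FPKM in DMSO and 32.9 and 33.4 FPKM in RDF. HIF activity is set mainly by protein stability, which RNA levels do not show.

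Egln1, which encodes PHD2, the main prolyl hydroxylase acting on HIF-1 alpha (chr8:127432496-127473154, minus strand), was at 27.1 and 26.5 FPKM in DMSO and at 42.7 and 43.5 FPKM in RDF. The mean was 26.8 ± 0.439 FPKM in DMSO against 43.1 ± 0.568 FPKM in RDF (± SD, n = 2), and the difference was a log2 fold change of 0.67 ± 0.05 (SE, limma adjusted p = 0.00164). Egln3, which encodes PHD3, was at 41.6 and 42.7 FPKM in DMSO and at 44.6 and 52.0 FPKM in RDF and did not pass (0.19, 95% interval -0.01 to 0.39). The share of Egln1 in the pair was 39.4% and 38.2% in DMSO and 48.9% and 45.5% in RDF. Bnip3, a mitophagy receptor and a strongly hypoxia-inducible gene, was at 308 and 304 FPKM in DMSO and at 326 and 324 FPKM in RDF, with a change of 0.09 (95% interval -0.04 to 0.21).

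**Figure D2:**
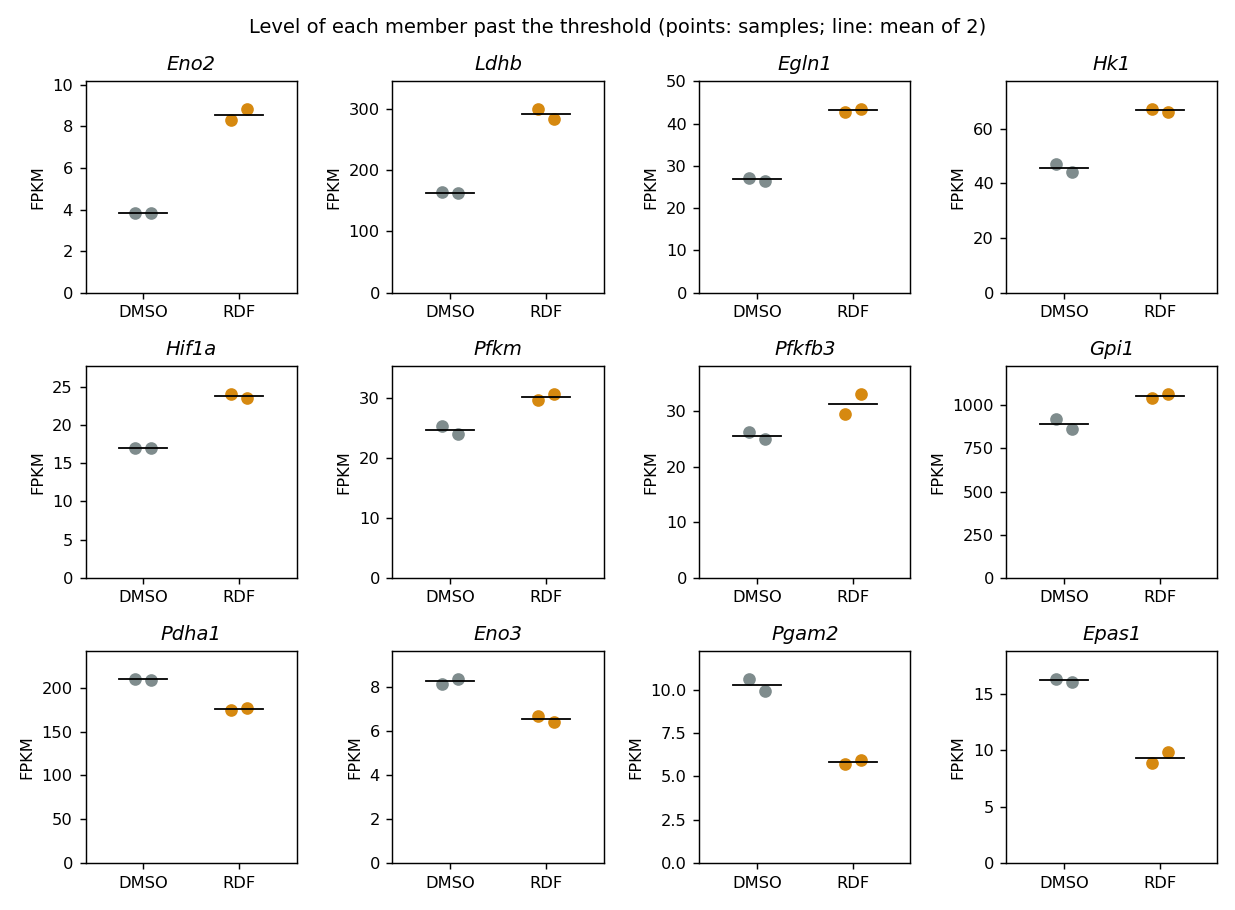
FPKM (y axis, from 0) in each DMSO and RDF sample for the 12 genes past the threshold, with a line at the mean of 2 samples. In every panel the groups do not overlap, which follows largely from choosing the genes by the test on these same values. Eno2 is at one end, at 3.84 to 3.85 FPKM in DMSO and 8.29 to 8.86 FPKM in RDF. Epas1 is at the other, at 16.1 to 16.3 FPKM in DMSO and 8.84 to 9.83 FPKM in RDF.

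**Figure D3:**
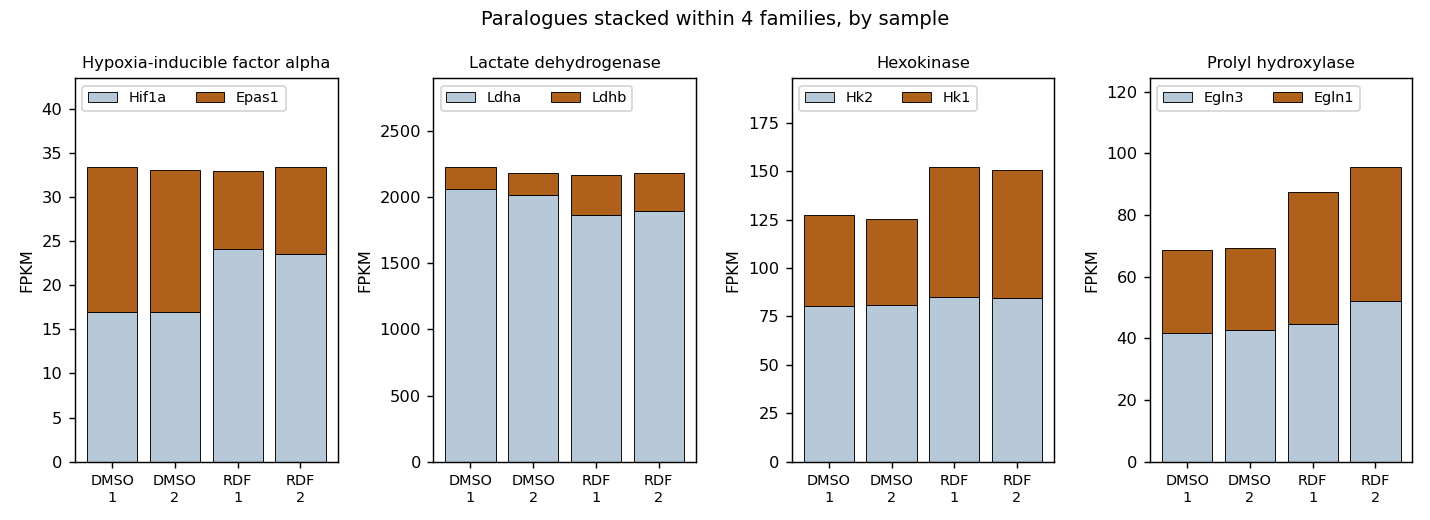
FPKM (y axis) of both paralogues of the HIF alpha, lactate dehydrogenase, hexokinase and prolyl hydroxylase families, stacked for each sample. The HIF alpha stack keeps its height of 32.9 to 33.4 FPKM while Hif1a takes a larger part in RDF, and the hexokinase and prolyl hydroxylase stacks are taller in RDF.

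HIF recognises the DNA cores ACGTG and GCGTG, which were searched on both strands of RefSeq windows of 300 bases, from 250 before to 50 after each annotated start on GRCm38.p6. A CACGTG holds ACGTG on both strands and counts as 2 overlapping matches, and the cAMP response motif TGACG, also searched on both strands, may overlap ACGTG. Windows were found for 40 of the 43 genes, 57 windows in all, and not for Pdp1, Epas1 and Slc2a3. The 2 lactate dehydrogenase genes, Eno2 and Egln1 are shown 5′ to 3′ because Ldhb, Eno2 and Egln1 were the 3 largest rises and Ldha is the abundant partner of Ldhb that did not pass. Capitals mark each ACGTG or GCGTG match on either strand.
Ldha, chr7:46845554-46845853, plus strand: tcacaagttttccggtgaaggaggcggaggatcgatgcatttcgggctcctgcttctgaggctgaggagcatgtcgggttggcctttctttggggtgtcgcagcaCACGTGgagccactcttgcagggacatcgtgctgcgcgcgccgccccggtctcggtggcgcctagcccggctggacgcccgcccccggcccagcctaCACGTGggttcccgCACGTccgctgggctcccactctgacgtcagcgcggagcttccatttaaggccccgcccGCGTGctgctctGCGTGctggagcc
Ldhb, chr6:142507908-142508207, minus strand: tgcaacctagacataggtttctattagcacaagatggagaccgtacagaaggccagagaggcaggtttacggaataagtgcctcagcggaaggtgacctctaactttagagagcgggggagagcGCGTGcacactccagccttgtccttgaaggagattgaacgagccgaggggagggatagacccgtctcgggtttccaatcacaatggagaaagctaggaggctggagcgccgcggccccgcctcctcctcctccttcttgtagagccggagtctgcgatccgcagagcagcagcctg
Eno2, chr6:124769624-124769923, minus strand: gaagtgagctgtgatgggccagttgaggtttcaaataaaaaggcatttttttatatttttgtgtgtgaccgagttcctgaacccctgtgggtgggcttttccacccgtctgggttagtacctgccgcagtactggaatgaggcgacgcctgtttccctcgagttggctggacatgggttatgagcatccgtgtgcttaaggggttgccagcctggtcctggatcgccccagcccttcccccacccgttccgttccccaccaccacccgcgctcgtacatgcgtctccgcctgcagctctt
Egln1, chr8:124949205-124949504, minus strand: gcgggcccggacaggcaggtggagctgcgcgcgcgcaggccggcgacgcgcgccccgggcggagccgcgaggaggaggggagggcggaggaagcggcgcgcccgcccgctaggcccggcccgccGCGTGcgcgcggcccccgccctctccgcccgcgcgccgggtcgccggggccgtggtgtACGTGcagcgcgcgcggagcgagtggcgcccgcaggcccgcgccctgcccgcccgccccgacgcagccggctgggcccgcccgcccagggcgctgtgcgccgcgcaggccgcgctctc

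The Ldha window shown held 5 matches to ACGTG, from 2 CACGTG and 1 further site, and 2 to GCGTG. It was also the only window of the 57 with the full cAMP response element TGACGTCA, which 1.79% of all windows hold. The other Ldha window, chr7:46846832-46847131, is not shown and held no match to ACGTG and 2 to GCGTG. The Ldhb window held 1 match, to GCGTG, the Eno2 window none and the Egln1 window 1 to each core. At least 1 of the cores was in 78.9% of the windows of these genes, beside 43.8% of all 32851 windows of the table. Among the genes called higher it was in 9 of 13 windows (69.2%), among those called lower in 2 of 3 (66.7%) and among those not called in 34 of 41 (82.9%). TGACG was in 26.3% of the windows of these genes and in 20.8% of all windows. A match is a run of letters only, and windows of the same gene overlap where its starts lie close together. All 32851 windows cover 27025 genes, whereas 11733 genes were tested for expression. Each core holds the pair CG, and windows were not matched for base composition or level of expression. What these shares say of HIF binding was not tested.

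Levels and calls were also set side by side. Of the 9 genes that averaged 1000 FPKM or more none passed in limma, with 2 of 9 at an unadjusted p under 0.05 and log2 fold changes of -0.23 to 0.26, while 12 of the other 34 passed. The next gene below that level, Gpi1 at a mean of 974 FPKM, was called higher, so the count of none depends on where the level is set. Among all 118 genes tested at that level, 6 passed, and 20 had an unadjusted limma p under 0.05. The summed level of the 43 genes was 28681 and 28278 FPKM in DMSO and 27505 and 27433 FPKM in RDF, or 3.96%, 3.70%, 3.80% and 3.82% of all FPKM in the 4 samples. Within 12 families of paralogues that hold 29 of the genes, the largest moves in share were those of Hif1a (20.7 percentage points up in RDF), Egln1 (8.39 up), Hk1 (7.97 up) and Ldhb (6.05 up), and each was larger than the pooled SD within groups (0.433 to 1.78 points). The summed level of a family in RDF divided by that in DMSO ranged from 0.929 for enolase to 1.33 for the prolyl hydroxylases and was 0.999 for HIF alpha, 1.00 for phosphofructokinase and 0.986 for lactate dehydrogenase.

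The wider pathway was described with lists of genes beside the 43. Of 27 other genes of glycolysis and glucose handling that passed the filter, from 45 listed, 4 were higher (14.8%, beside 13.3% of all genes tested) and 5 were lower (18.5%, beside 8.28%). Fbp2, a fructose bisphosphatase that runs the phosphofructokinase step backwards, was at 1.67 and 2.44 FPKM in DMSO and at 6.63 and 6.002 FPKM in RDF (log2 fold change 1.27, limma adjusted p = 0.00365). Glycogen synthase, Gys1, rose by 0.50 and the glycogen branching enzyme, Gbe1, by 0.41. Those that fell most were Txnip (-0.48) and Arrdc4 (-0.48), arrestins that restrain glucose uptake and are induced by glucose, and Pck2 (-0.41), mitochondrial phosphoenolpyruvate carboxykinase. Txnip was at 226 and 233 FPKM in DMSO and at 161 and 166 FPKM in RDF, and passed in all 11 alternatives. Without RDF replicate 1 the counts of this list were 2 higher and 2 lower, without RDF replicate 2 they were 1 and 1, and without DMSO replicate 2 they were 3 and 3.

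Of 19 other pyruvate and lactate genes tested, from 23 listed, 4 were higher (21.1%, beside 13.3% of all genes tested) and 2 were lower (10.5%, beside 8.28%). Those that rose most were Acss1 (0.55), a mitochondrial acetyl-CoA synthetase, Pcx (0.51), pyruvate carboxylase, and Brp44l (0.50), the older symbol of Mpc1, a subunit of the mitochondrial pyruvate carrier. Brp44l was at 34.1 and 31.5 FPKM in DMSO and at 44.3 and 49.1 FPKM in RDF. Emb, a chaperone of the monocarboxylate transporters, fell from 40.0 and 40.6 FPKM to 26.1 and 25.3 FPKM (log2 fold change -0.63, limma adjusted p = 0.00211), and the alanine aminotransferase Gpt2 fell by 0.30 on the log2 scale. Of these, Emb passed in all 11 alternatives. The counts were 1 and 1 without RDF replicate 1, 0 and 1 without RDF replicate 2, and 3 and 1 without either DMSO sample. Of 10 other pentose phosphate and NADPH genes, 1 passed, the glutathione reductase Gsr (0.23, limma adjusted p = 0.0346), and it was kept in 5 of 11 alternatives, being lost among others without DMSO replicate 2, RDF replicate 1 or RDF replicate 2.

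Of 20 genes of the TCA cycle, which burns the acetyl-CoA made from pyruvate, none was higher and 2 were lower in limma. The shares of all genes tested were 13.3% higher and 8.28% lower. At an unadjusted limma p under 0.05, 3 of the 20 were higher and 6 lower, beside 2637 and 1816 of all 11733 genes. Sdha, a subunit of succinate dehydrogenase, was at 195 and 190.3 FPKM in DMSO and at 166 and 165 FPKM in RDF (-0.22, limma adjusted p = 0.0314). Mdh2, mitochondrial malate dehydrogenase, was at 385 and 396 FPKM in DMSO and at 329 and 335 FPKM in RDF (-0.23, limma adjusted p = 0.0314). The number of lower calls was 4 under median-ratio scaling, 0 under quantile normalization and 0 without DMSO replicate 2, RDF replicate 1 or RDF replicate 2, and 1 without DMSO replicate 1.

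Other known HIF targets changed in both directions. Of 33 tested, from 35 listed, 10 were higher, Gbe1 among them, and 8 were lower, 54.5% in all beside 21.6% of all genes tested. Vegfa, the angiogenic factor and a classic HIF target, was at 38.7 and 39.8 FPKM in DMSO and at 62.1 and 62.8 FPKM in RDF (log2 fold change 0.66, limma adjusted p = 0.00159). Wsb1, a ubiquitin ligase subunit, rose by 0.72 and Ak4, a mitochondrial adenylate kinase, by 0.47. Lox, lysyl oxidase, fell from 13.3 and 13.9 FPKM to 4.55 and 4.73 FPKM (-1.37, limma adjusted p = 0.000577), and Upk1a, a uroplakin, fell by 0.80 on the log2 scale. Bhlhe40, a transcriptional repressor, fell from 179 and 183 FPKM to 112 and 116 FPKM (-0.66, limma adjusted p = 0.00159). Lox is also a known target of TGF-β signalling and is expressed in fibroblasts, of whose 9 tested markers 5 were lower and 1, Dcn, was higher, and the part of either in these values was not tested. The counts were 9 higher and 6 lower without DMSO replicate 1, 5 and 4 without DMSO replicate 2, 2 and 3 without RDF replicate 1, and 2 and 2 without RDF replicate 2. Vegfa, Wsb1, Bhlhe40 and Lox passed in all 11 alternatives.

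Among 11 other oxygen sensing genes tested, from 12 listed, 1 passed (9.09%, beside 21.6% of all genes tested). This was P4htm, a transmembrane prolyl hydroxylase that can act on HIF alpha, at 3.78 and 4.06 FPKM in DMSO and at 6.11 and 6.53 FPKM in RDF (log2 fold change 0.57, limma adjusted p = 0.00924), and it was lost without RDF replicate 1 or RDF replicate 2. The medians of the 6 lists lay between -0.08 and 0.08 on the log2 scale, near the 0.03 of all genes tested.

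**Figure D4:**
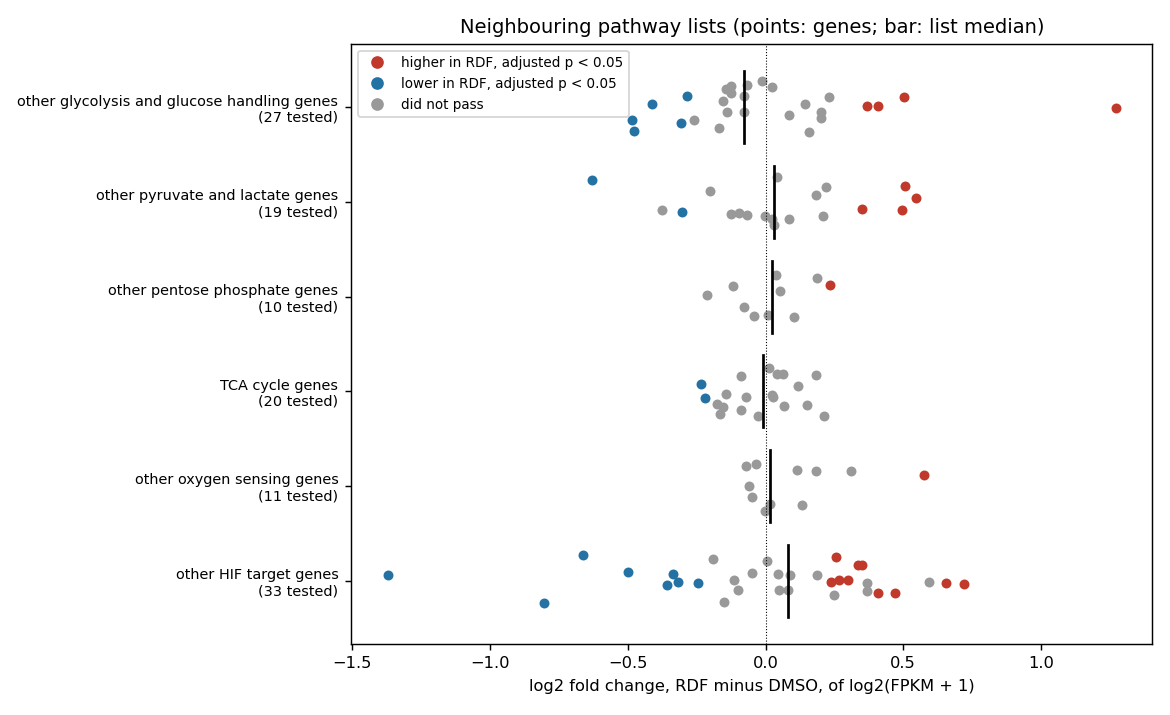
Log2 fold change (x axis, RDF minus DMSO on log2(FPKM + 1)) of every tested gene in the 6 neighbouring lists, coloured by call, with a black bar at each list's median. The HIF targets spread from -1.37 for Lox to 0.72 for Wsb1, while the TCA cycle genes stay within -0.23 and 0.21.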

How the data were processed

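Expression was measured by RNA-seq in 4 samples of haESCs, 2 treated with DMSO and 2 with RDF, grouped by their labels. The authors prepared stranded mRNA libraries, mapped the reads with TopHat2 2.0.14 and Bowtie2 2.1.0, estimated levels with Cufflinks 2.2.1 against UCSC's mm9 gene models and deposited the FPKM of each gene symbol. The versions are those of the submitters' processing notes. The strand setting and the handling of reads with several positions are not given in the sources used here. FPKM carry no counts, so the depth was estimated from the steps of low values.

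Values were compared as log2(FPKM + 1) for genes that averaged 1 FPKM or more, with limma 3.58.1 in R 4.3.3 (lmFit and eBayes, trend on) and p-values adjusted by Benjamini-Hochberg over all 11733 genes, at an adjusted p of 0.05. The fit was tested on simulated data. This pseudocount understates the change of low genes. Intervals are limma's 95% intervals, and SD are of 2 samples. Positions are of NCBIM37, the build of the files, and promoter windows of RefSeq GRCm38.p6 were matched by symbol, with no conversion between the builds.

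The alternatives were a pseudocount of 0.1, no filter, a filter of 5 FPKM, median-ratio scaling, quantile normalization, no trend, the replicate block and each sample left out. Members and lists were chosen with earlier results of these data known. Every member is reported by role, with values per sample for those past the threshold and for the most abundant of each family, and from each other list up to 3 genes per direction with the largest change among those past the threshold. A listed HIF target that this rule selects is not reported here and was left out of its list. The alternatives for the other lists were added after seeing the data. Figures were drawn with matplotlib 3.10.9.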

Additional observations from a re-analysis of the deposited data

How the results depend on the processing

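Of the 470 log2 fold changes of the 43 genes under the alternatives, 421 kept their direction and their side of the threshold, 32 lost the threshold, 7 gained it and 10 changed sign. The sign changes were in 6 genes that never passed the test: Aldoa (0.0865) and Gapdh (0.11) under quantile normalization, Slc16a1 (-0.00902) under median-ratio scaling, and, with 1 sample left out, Gapdh (-0.12 to 0.00223), Pfkfb4 (-0.14 to 0.12), Eno1 (-0.23 to 0.0203), Slc16a1 (-0.00977 to 0.0586) and Pdk4 (-0.0495 to 0.25). Without the filter, 942 genes were higher and 606 lower of 18012 tested, and the cause was not tested. With 1 sample left out, 253 to 1121 genes were higher and 195 to 731 lower, and 4 to 7 members were higher and 2 to 4 lower, the fewest without RDF replicate 1 or RDF replicate 2. Fits of 3 samples leave 1 residual degree of freedom, and the lone sample is assumed to vary like the other group. Without the mean-variance trend, 5 members were higher, and the cause was not tested. The members' median was 0.0298 under median-ratio scaling, 0.0865 under quantile normalization and 0.0505 to 0.0684 with 1 sample left out. With the replicate number as a block (replicate block), 9 members were higher and 3 lower, with Eno3 and Gpi1 lost and Pdk2 and Slc2a3 gained. The labels do not say what same-numbered samples share, and across the 11733 genes their deviations from the group means correlated weakly (Pearson 0.134, Spearman 0.114). FPKM keep no counts, so counting error was not carried into the test, and it bears most on Pfkfb4, Pgam2 and Pdp1.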
